A study of Macaca fascicularis with 6 samples.

Results

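*ECRG4*, *SCRG1*, *CLEC3A* and *CYTL1* code for small proteins that cartilage cells secrete. They were taken as a set of 4 named genes, with *ECRG4* chosen by its measured level, which was higher after transplantation than before. The genes were looked up by symbol, and 3 of the 4 were found among 14020 listed genes. *CYTL1* was not among the listed genes and has no value here. The change of *ECRG4* after transplantation is what chose it, so it is given as a description. With 1 sample per condition, no test between conditions was possible for any gene.

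*ECRG4* codes for a secreted peptide precursor, also called augurin, that is cut by proteases at the cell surface and is found in cartilage, the choroid plexus and other secretory epithelia. *SCRG1* codes for a small cysteine-rich secreted protein, first described in prion-infected brain and made by mesenchymal cells that turn into chondrocytes. *CLEC3A* codes for a C-type lectin of the cartilage matrix related to tetranectin, the product of *CLEC3B*. *CYTL1* codes for a cytokine-like protein made by chondrocytes.

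The values come from TAS-Seq, single-cell RNA-seq on BD Rhapsody beads, in the cynomolgus monkey. The samples were cyiPSC, undifferentiated iPS cells that carry an EGFP reporter gene, pre-transplant cyiPS-Cart, the cartilage organoids made from them, post-transplant cyiPS-Cart, the same allogeneic organoids harvested from chondral defects of the knee 17 weeks after surgery, cyAC, the articular cartilage, and cyFT, the fibrous tissue formed in defects that received nothing. The recipients were 3 to 4 years old and wild type by their labels, their MHC did not match the donor cells, and no immunosuppressive drug was given. The transplanted sites of each monkey were combined, and the number of animals behind a library is not given in the sources used here, so each condition was taken as 1 sample.

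The 5 samples came from 3 libraries: cyiPSC shared a library with pre-transplant cyiPS-Cart, cyAC shared one with cyFT, and post-transplant cyiPS-Cart had its own, so library and tissue cannot be told apart in comparisons across libraries. One matrix held 2500 cyiPSC and 3527 pre-transplant cells, and another held 320 cells each of the other 4 sets, including 320 pre-transplant cells. Cell numbers shared between libraries were few (0, 2 and 4 for the 3 pairs). Median reads per cell ran from 27499.5 in cyFT to 143075 in cyiPSC. Levels are counts per 1000000 reads (CPM) of the reads summed over the cells of a sample. The 95% intervals are for counting error only, and none covers the spread between samples. Those of levels and ratios treat reads as independent. Reads are not independent molecules, so these intervals can be too narrow even for counting error. As a check of the labels, pluripotency genes summed to 649 CPM in cyiPSC and 13.3 in pre-transplant cells of that matrix (*POU5F1* was not among the listed genes). In the other matrix summed chondrocyte markers (9 of 10 listed) ran from 38271 CPM in cyFT to 85771 in post-transplant cyiPS-Cart. Summed fibroblast markers there ran from 9058 CPM in cyAC to 71458 in post-transplant cyiPS-Cart. They were 47527 CPM in cyFT, the fibrous tissue, below post-transplant cyiPS-Cart, so the fibroblast sum does not bear out the labels. GFP-polyA, the donor mark, was found in all 320 post-transplant cells and in 0 of 320 cells of cyAC and of cyFT, where 0 reads allow up to 0.254 and 0.271 CPM.

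*ECRG4* was low in the cultured cells, high in post-transplant cyiPS-Cart and higher still in tissue of the joint. Its summed level was 15.4 CPM in cyiPSC (15.0 to 15.7), 27.6 in the organoid before transplantation (25.4 to 29.9) and 1001 after it (989 to 1012). It was 2949 CPM in cyFT (2917 to 2981) and 4341 CPM in cyAC (4304 to 4379). None of these intervals overlap, but with 1 sample per condition the spread between samples is not known for any neighbours in that order. Reads were found in 34.4% of pre-transplant cells (29.2 to 39.9) and in 94.1% of post-transplant cells (90.9 to 96.4), and after thinning every cell to 12191 reads in 17.1% and 89.0%. So the difference was seen in most cells of the transplant and not in a few: the median cell had 0 CPM before and 786 CPM after, with quartiles of 340 and 1476 CPM after. The median cell had 3218 CPM in cyAC (quartiles 1500 and 6238) and 831 CPM in cyFT (158 and 2686). At least 1000 CPM were found in 84.1% of cyAC cells, 48.1% of cyFT cells and 41.3% of post-transplant cells, and in 0 of 320 pre-transplant cells, whose highest value was 482 CPM.

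The level of *ECRG4* in cyiPSC has to be read with care. Its share of cells was higher in cyiPSC (44.5%) than in the 3527 pre-transplant cells of the same matrix (34.1%), while its CPM was lower (15.4 against 27.0), and after thinning to 30967 reads the shares were 25.4% and 28.6%. No order was read from these shares. Its smallest count above 0 was 1 read in every sample, so the background step of the authors, which set low counts of highly expressed genes to 0, left single reads of *ECRG4* in place.

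**Figure D1:**
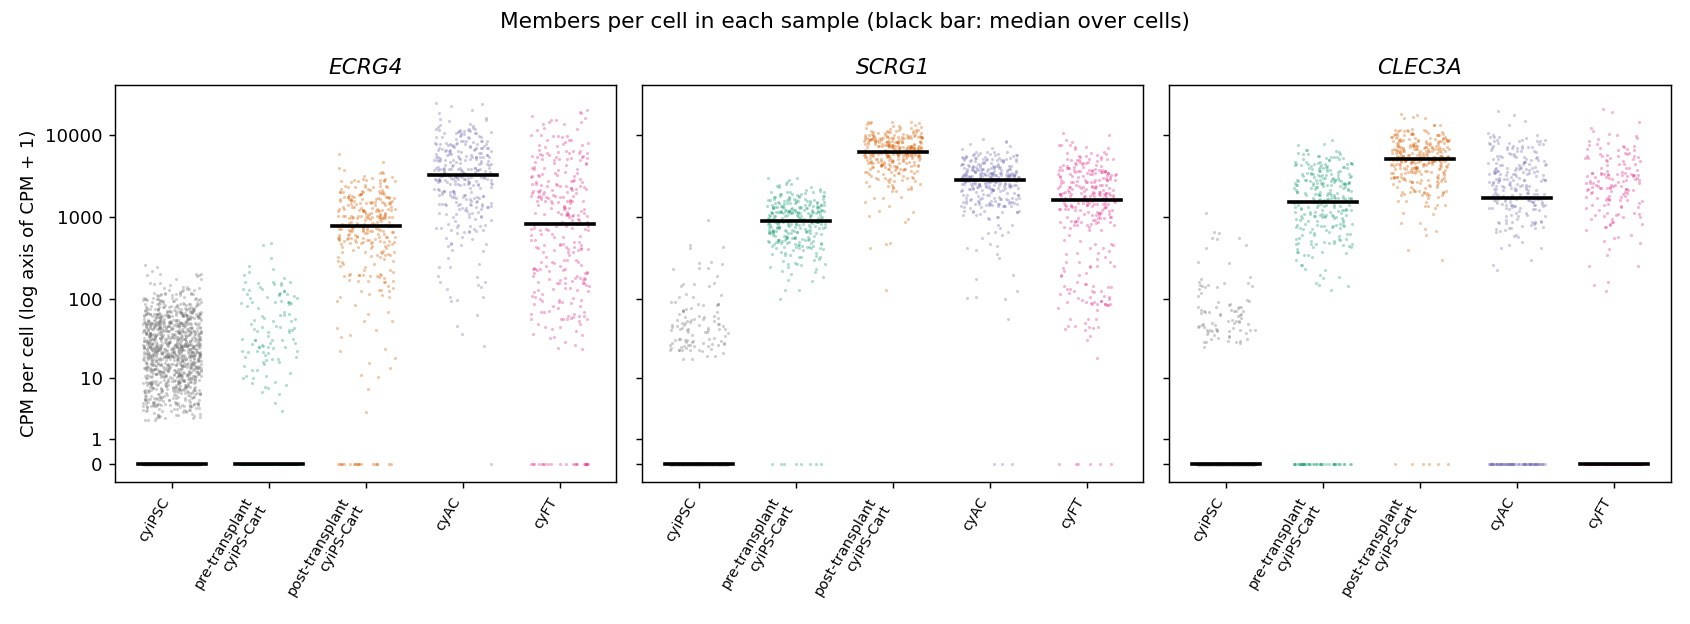
CPM per cell of *ECRG4*, *SCRG1* and *CLEC3A* (vertical axis, log axis of CPM + 1) in each sample (horizontal axis), with 1 point per cell and a black bar at the median over cells. The median cell is at 0 for *ECRG4* in cyiPSC and in the pre-transplant organoid, and at 786 CPM after transplantation.

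*SCRG1* was already high in the organoid before transplantation and highest after it. It stood at 3.90 CPM in cyiPSC (3.71 to 4.09) and 951 in pre-transplant cells of that matrix (947 to 955). In the other matrix it stood at 995 CPM in pre-transplant cyiPS-Cart (981 to 1008), 6445 in post-transplant cyiPS-Cart (6416 to 6474), 3045 in cyAC (3013 to 3076) and 2272 in cyFT (2244 to 2300). Nearly all cells of the 4 cartilage or joint samples held a read: 97.5%, 100%, 99.1% and 98.1% in that order, against 4.40% of cyiPSC. The background step of the authors could zero low counts of *SCRG1* too, and its limit may differ between libraries. These shares may therefore rest on unlike limits of detection. Its median over cells was 898 CPM before and 6215 CPM after transplantation, and 98.1% of post-transplant cells but 42.8% of pre-transplant cells had at least 1000 CPM.

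*CLEC3A*, the cartilage lectin, followed the order of *SCRG1* at the level of the sample but not in its share of cells. Its summed level was 4.33 CPM in cyiPSC (4.13 to 4.53), 1918 in pre-transplant cyiPS-Cart (1900 to 1937), 5520 in post-transplant cyiPS-Cart (5494 to 5547), 2786 in cyAC (2756 to 2816) and 2128 in cyFT (2101 to 2155). Reads were found in 3.60% of cyiPSC, 86.6% of pre-transplant cells, 98.1% of post-transplant cells, 75.9% of cyAC cells and 49.7% of cyFT cells. The median cyFT cell therefore had 0 CPM, while the upper quartile of cyFT cells was 2617 CPM. The smallest *CLEC3A* count above 0 was 11 reads in the libraries of cyiPSC and of cyAC and 20 in that of post-transplant cyiPS-Cart, so a cell listed without *CLEC3A* may have held reads under that limit. *CLEC3B*, its relative, had another order: 3.43 CPM before and 74.4 after transplantation, 39.6 in cyAC and 322 in cyFT, where 47.8% of the cells held a read.

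Across the transplantation all of the measured genes were higher. The ratio of post- to pre-transplant CPM was 36.2 for *ECRG4* (33.4 to 39.4), 6.48 for *SCRG1* (6.39 to 6.57) and 2.88 for *CLEC3A* (2.85 to 2.91). On the scale of log2 ratios of CPM + 1 these are 5.13, 2.69 and 1.52, against a median of -0.39 over 3421 genes. A gene was compared only if 1 of the samples had it at 50 CPM or more and 1 of them had reads of it in 25% or more of its cells. Of all genes compared, 8.16% were at least 2-fold higher and 22.1% at least 2-fold lower. That 3 of 3 genes of the set were at least 2-fold higher is a description, since *ECRG4* was chosen by this ratio and passed the minimum of 50 CPM only through the post-transplant sample. Ranked from the largest ratio, *SCRG1* was number 57 and *CLEC3A* number 153. *COL2A1*, the type II collagen gene, had a log2 ratio of 0.71 and *PRG4*, the gene of lubricin, 1.26.

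**Figure D2:**
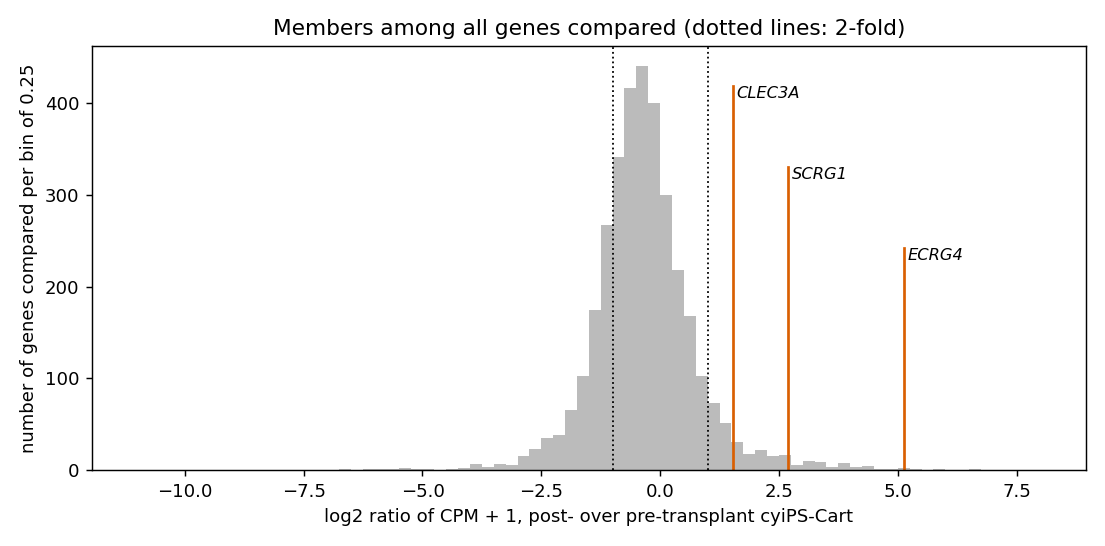
Number of genes (vertical axis) by log2 ratio of CPM + 1, post- over pre-transplant cyiPS-Cart (horizontal axis, bins of 0.25), over 3421 genes, with dotted lines at a ratio of 2 in either direction. Orange lines mark *CLEC3A* at 1.52, *SCRG1* at 2.69 and *ECRG4* at 5.13, and their heights carry no value.

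Set against cyAC, post-transplant cyiPS-Cart had less *ECRG4* and more of the other two. Its *ECRG4* was 4.34-fold lower (4.28 to 4.40), its *SCRG1* 2.12-fold higher (2.09 to 2.14) and its *CLEC3A* 1.98-fold higher (1.96 to 2.01). With 1 of 3 at least 2-fold higher and 1 of 3 at least 2-fold lower, the background was 10.8% and 17.8% of 3235 genes. *COL2A1* differed by 1.04-fold in that comparison, and 0 of 9 chondrocyte markers by 2-fold. Of 5 fibroblast markers compared, 3 were at least 2-fold higher and 1 lower in post-transplant cyiPS-Cart (median log2 ratio 2.74), with *COL1A1* at 10168 CPM against 1196 CPM in cyAC. Against cyFT the pattern was alike: *ECRG4* was 2.95-fold lower, *SCRG1* 2.84-fold higher and *CLEC3A* 2.59-fold higher, where 7.85% of 3389 genes were at least 2-fold higher and 21.4% at least 2-fold lower. These comparisons share the post-transplant sample.

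Between the joint tissues the genes differed little as sums. *ECRG4* was 1.47-fold higher in cyAC than in cyFT (1.45 to 1.49), *SCRG1* 1.34-fold (1.32 to 1.36) and *CLEC3A* 1.31-fold (1.29 to 1.33), so 0 of 3 reached 2-fold in either direction, against 3.73% of 3270 genes higher and 7.06% lower. *COL2A1* was 2.28-fold higher in cyAC. Both tissues came from 1 library and were told apart by hashtag.

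Before transplantation the organoid was far from cyAC in *ECRG4* and near it in *CLEC3A*. cyAC had 157-fold more *ECRG4* than pre-transplant cyiPS-Cart (145 to 171), 3.06-fold more *SCRG1* and 1.45-fold more *CLEC3A*. So 2 of 3 were at least 2-fold higher, against 11.3% of 3498 genes higher and 15.7% lower. That count is a description. *ECRG4* was chosen by a ratio over the same pre-transplant sample and passed the minimum of 50 CPM only through cyAC. From cyiPSC to pre-transplant cyiPS-Cart, *SCRG1* was 244-fold higher (232 to 256) and *CLEC3A* 440-fold (420 to 461), where 18.4% of 4684 genes were at least 2-fold higher and 38.5% at least 2-fold lower. Both genes passed the minimum of 50 CPM only through the organoid. *ECRG4* was under the minimum of 50 CPM in that comparison and its ratio was 1.76 (1.70 to 1.82). With TMM factors, another scaling, the log2 ratios of this comparison were 1.41 in place of 0.77 for *ECRG4*, which is then past 2-fold, 8.20 in place of 7.60 for *SCRG1* and 9.08 in place of 8.48 for *CLEC3A*. With a pseudocount of 10 CPM they were 6.11 for *SCRG1* and 7.06 for *CLEC3A*. Of the reads of the 3 genes together, uncorrected for transcript length, *ECRG4* made up 0.939% before transplantation, 7.72% after it, 40.1% in cyFT and 42.7% in cyAC.

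Other secreted proteins of cartilage did not move as 1 block. A list of 44 such genes, from matrilins and small leucine-rich proteoglycans to Wnt and BMP antagonists, had 41 listed and 31 above the minimum between pre- and post-transplant cyiPS-Cart. Of the 31, 16 were at least 2-fold higher and 9 at least 2-fold lower, against 8.16% and 22.1% of all genes, with a median log2 ratio of 1.03 against -0.39 over all genes compared. The largest log2 ratios were those of *CILP* (4.78, from 25.7 to 734 CPM), a cartilage intermediate layer protein, of *PTHLH* (3.93, from 7.98 to 136 CPM), the parathyroid hormone-like peptide of growing cartilage, and of *WIF1* (3.27, from 11.8 to 122 CPM), a Wnt inhibitor. The lowest were those of *UCMA* (-6.57, from 5324 to 55.2 CPM), a protein of growth plate and developing cartilage matrix, of *CHRDL2* (-5.98, from 488 to 6.73 CPM), a BMP antagonist, and of *CHI3L1* (-4.17, from 1168 to 63.9 CPM), a chitinase-like glycoprotein. Between post-transplant cyiPS-Cart and cyAC, 7 of 31 listed genes were at least 2-fold higher and 11 lower, against 10.8% and 17.8% of all genes (median log2 ratio -0.49, all genes -0.13). Between post-transplant cyiPS-Cart and cyFT 5 of 29 were higher and 9 lower, against 7.85% and 21.4% (0.08, all genes -0.29). Between cyAC and cyFT 10 of 30 were higher and 4 lower, against 3.73% and 7.06% (0.43, all genes -0.11). From cyiPSC to pre-transplant cyiPS-Cart 25 of 25 were higher, against 18.4% (median 6.72, all genes -0.63). This last count is a description, since cartilage genes could pass the minimum mainly through the organoid. The 9 chondrocyte markers summed to 130 CPM in cyiPSC and 51427 CPM in pre-transplant cells of that matrix. Between cyAC and pre-transplant cyiPS-Cart 16 of 33 were higher and 8 lower, against 11.3% and 15.7% (0.59, all genes -0.28). The genes past the minimum include some that passed through 1 of the samples alone.

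The near-equal sums of cyAC and cyFT hid a sharp difference between cells. Cells were put in classes by whether they held a read of *COL2A1*, the collagen of hyaline cartilage, or *COL1A1*, the collagen of fibrous tissue. Because of the background step the smallest counts above 0 were 211 reads for *COL2A1* and 81 for *COL1A1* in cyFT, so a cell without reads is one below that limit. In cyFT, the 84 cells with *COL2A1* alone had *ECRG4* at 6233 CPM (6160 to 6307), the 33 cells with both collagens had 1180 (1118 to 1244), the 170 cells with *COL1A1* alone had 726 (701 to 752) and the 33 cells with neither had 237 (209 to 267). The cells with *COL2A1* alone thus had *ECRG4* 8.59-fold above those with *COL1A1* alone. In cyAC the 276 cells with *COL2A1* alone had 4539 CPM (4498 to 4580), under the same class of cyFT, and the 16 cells with *COL1A1* alone had 893 (816 to 976).

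*SCRG1* and *CLEC3A* also differed between the collagen classes, but in cyFT they were highest in cells with both collagens. *SCRG1* stood at 3046 CPM in cyFT cells with *COL2A1* alone, 4358 in cells with both (4238 to 4481), 1473 in cells with *COL1A1* alone and 138 in cells with neither. *CLEC3A* stood at 3083, 5260 (5128 to 5394), 842 and 81.5 CPM in the same order. So *ECRG4* was lower in cells with both collagens than in cells with *COL2A1* alone (1180 against 6233 CPM), while the other two genes were higher there. Cells of a class differed in depth too, with median reads of 47802.5, 32528, 21830 and 26220 per cell in that order, and the part of depth in these levels was not tested.

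The cells with neither collagen had markers of other cell types in cyFT. Their 6 immune markers summed to 4011 CPM, with *CD3E* at 0 reads in cyFT, and 15 of the 33 cells held reads of at least 3 of these markers, against 29.6 CPM and 0 of 170 cells in those with *COL1A1* alone. *ECRG4* reads were still found in 78.8% of these 33 cells and *SCRG1* reads in 87.9%, at median depths of 26220 reads, so shares of cells near those levels in cyFT and cyAC do not show that a cell made the transcript. *CLEC3A*, with its limit of 11 reads, was found in 9.09% of them. At least 3 chondrocyte markers were found in 31 of these 33 cells and in all 25 cyAC cells with neither collagen, and the markers summed to 1171 CPM in cyFT and 6159 CPM in cyAC. Immune markers of the 25 cyAC cells summed to 136 CPM and endothelial markers to 144 CPM, against 69.1 CPM of endothelial markers in the 33 cyFT cells. *ECRG4* in the 25 cyAC cells was 4386 CPM (4247 to 4528), close to that of the cells with *COL2A1*. Their *SCRG1* was 1882 CPM and their *CLEC3A* 75.3 CPM. The part of other cell types in these levels was not tested.

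In the organoid nearly all cells were of the *COL2A1* classes. Cells with *COL2A1* alone were not free of fibroblast markers. These summed to 57758 CPM in the 265 such post-transplant cells, against 5242 CPM in the 276 such cyAC cells. Post-transplant *ECRG4* was 1048 CPM in 265 cells with *COL2A1* alone (1035 to 1061), 912 in 47 with both (884 to 941) and 51.4 in 7 with *COL1A1* alone (36.7 to 70.0). These 7 cells also had a median mitochondrial share of 7.74% of reads, against 1.62% in cells with *COL2A1* alone, and 1 cell had neither collagen. *SCRG1* was 6401, 7641 and 1155 CPM and *CLEC3A* 5677, 5602 and 225 CPM in the same order. Pre-transplant *ECRG4* was 30.4 CPM in 242 cells with *COL2A1* alone, 20.2 in 58 with both and 23.3 in 19 with *COL1A1* alone, a range in which the last interval (15.2 to 34.1) held the other two. Pre-transplant *CLEC3A*, in contrast, was 2262, 1198 and 486 CPM, and *SCRG1* was 1039, 959 and 553 CPM.

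**Figure D3:**
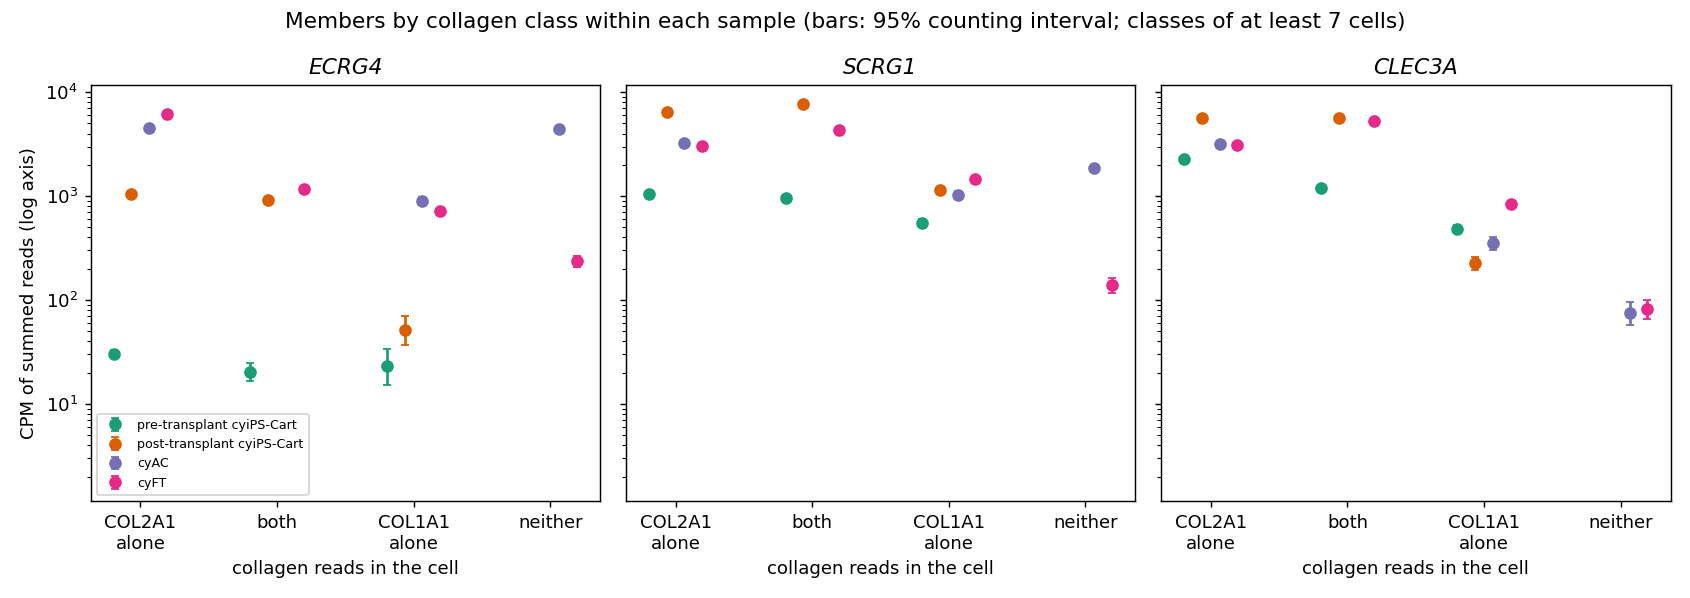
CPM of summed reads (vertical axis, log axis) of each gene by collagen class (horizontal axis) within each sample, with 95% counting intervals and classes of at least 7 cells. In cyFT *ECRG4* is at 6233 CPM in cells with *COL2A1* alone and at 1180 CPM in cells with both collagens, while *SCRG1* and *CLEC3A* are higher in cells with both.

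Within cyAC, *ECRG4* and *CLEC3A* ran in opposite directions along *COL2A1*. The cells of a sample were ranked by *COL2A1* CPM and parted into groups of 107, 107 and 106 cells. From the lowest to the highest *COL2A1*, *ECRG4* in cyAC was 5624 CPM (5547 to 5702), 5182 (5113 to 5252) and 2356 (2310 to 2404). *CLEC3A* was 1165 (1130 to 1200), 2703 (2653 to 2753) and 4298 CPM (4235 to 4362), and *SCRG1* was 2445, 3407 and 3204 CPM. Median depths of the groups were 27073, 31469 and 31979 reads per cell. Over the 320 cells Spearman's rho with *COL2A1* was -0.28 for *ECRG4*, number 3491 of 3503 genes from the top, and 0.50 for *CLEC3A*, number 4, beside a median of 0.02 over all genes.

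The pattern of cyAC was also there among cells with *COL2A1* reads. Over the 279 cells with reads of both genes rho was -0.50 for *ECRG4*, and 0.25 for *CLEC3A* over 239 such cells. The 139 *COL2A1*-positive cells with less *COL2A1* had *ECRG4* at 6277 CPM (6209 to 6346) and the 140 with more had 2808 (2763 to 2853). Cells without *COL2A1* reads did not extend this order. The 41 such cells had *ECRG4* at 3030 CPM, against 4519 CPM in the 279 cells with reads. Since *COL2A1* reads are part of the total, rho was also taken with them left out of the CPM of *ECRG4*, and was -0.26. These correlations are over cells of 1 sample that share a library and their depth, and cells are not replicates.

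The other samples did not show an inverse order for *ECRG4*. Post-transplant *ECRG4* was 822 CPM (804 to 840), 1087 (1067 to 1107) and 1088 (1068 to 1109) from the lowest to the highest *COL2A1*, and pre-transplant *ECRG4* was 23.8, 22.6 and 36.3 CPM with rho of 0.04. Among the 3527 pre-transplant cells of the other matrix it was 23.3, 30.0 and 27.8 CPM. In cyFT rho was 0.65 for *ECRG4*, 0.51 for *SCRG1* and 0.62 for *CLEC3A* over all cells, but 0.11, 0.02 and -0.12 over the cells with reads of both genes. There the relation lay between cells with and without *COL2A1*, and not among those with it: the 58 positive cells with less *COL2A1* had *ECRG4* at 5459 CPM and the 59 with more had 4990. *CLEC3A* rho with *COL2A1* was 0.52 in pre-transplant cyiPS-Cart and 0.12 in post-transplant cyiPS-Cart, and *CLEC3A* was 5251, 5523 and 5787 CPM along the post-transplant groups.

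**Figure D4:**
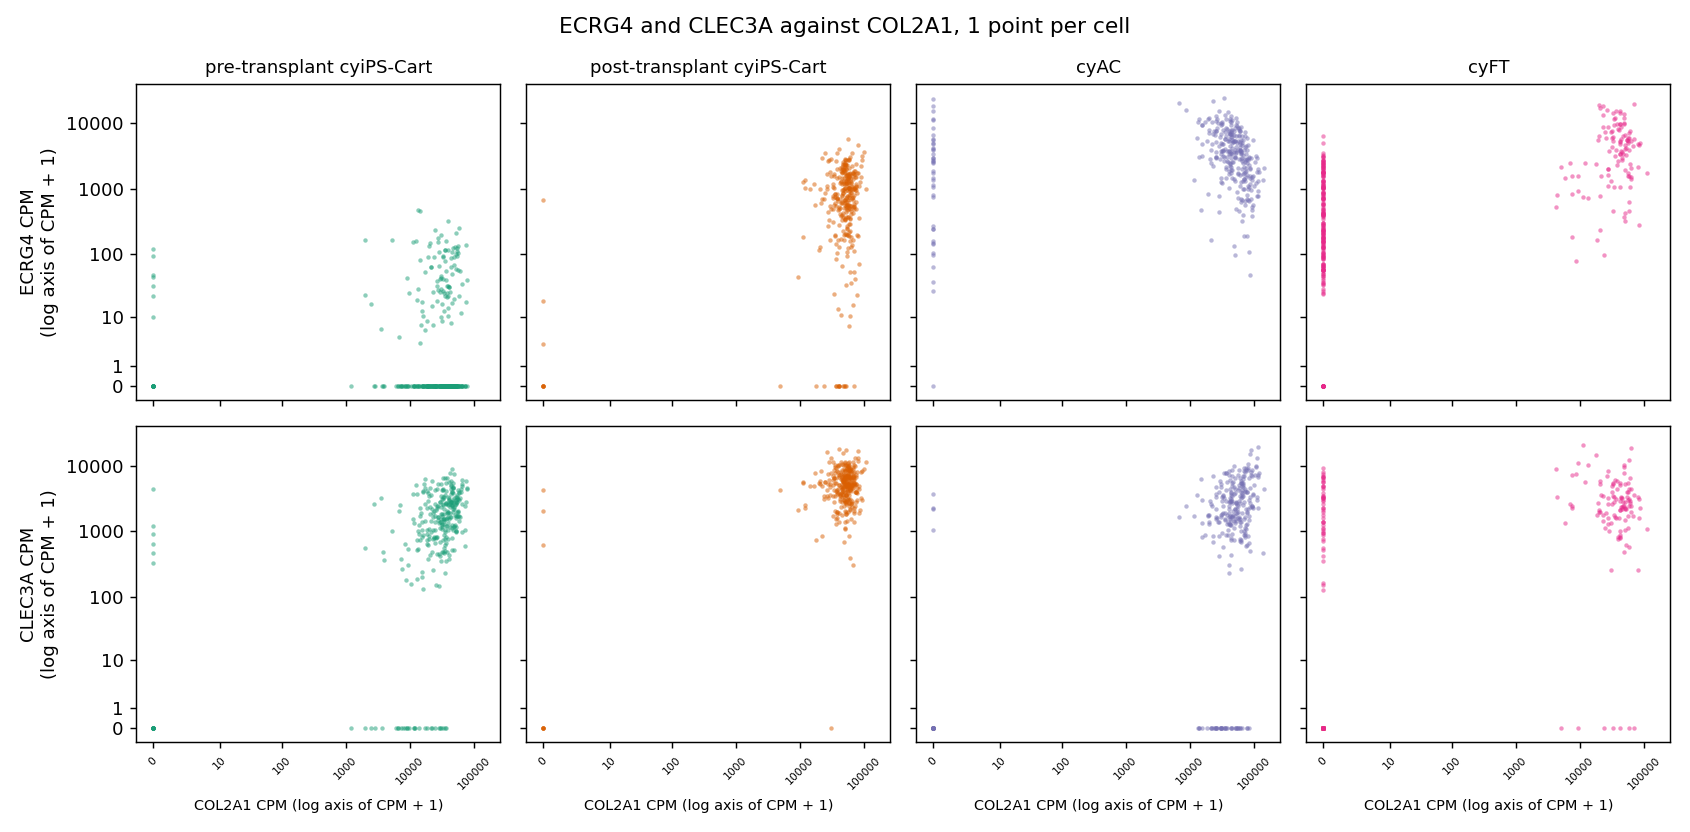
CPM per cell of *ECRG4* (upper row) and *CLEC3A* (lower row) against *COL2A1* CPM (horizontal axis), both on log axes of CPM + 1, with 1 point per cell and 1 column per sample. In cyAC the cloud of *ECRG4* falls towards high *COL2A1* (rho -0.28) and that of *CLEC3A* climbs (rho 0.50).

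The relation to *PRG4*, which codes for the lubricant of the joint surface, depended on whether the organoid samples were pooled. All of these genes are on a list that the study drew from these samples by splitting pooled organoid cells on *PRG4*, so a pooled difference is no independent evidence. Pooled over pre- and post-transplant cyiPS-Cart, the 280 cells with a *PRG4* read had *ECRG4* at 862 CPM (851 to 874) and the 360 without had 298 (292 to 305), a ratio of 2.89 (2.81 to 2.97). The pooled ratio was 2.14 for *SCRG1* (2.12 to 2.16) and 1.84 for *CLEC3A* (1.82 to 1.85). But post-transplant cells made up 81.1% of the cells with *PRG4* and 25.8% of those without.

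Within post-transplant cyiPS-Cart the cells with and without *PRG4* hardly differed. *ECRG4* was 1006 CPM in 227 cells with a *PRG4* read (993 to 1019) and 985 in 93 without (962 to 1009), a ratio of 1.02 (0.994 to 1.05). The ratio was 0.948 for *SCRG1* (0.938 to 0.958) and 1.01 for *CLEC3A* (0.996 to 1.02). Within pre-transplant cyiPS-Cart *ECRG4* was 42.0 CPM in 53 cells with *PRG4* (35.9 to 48.8) and 24.3 in 267 without (22.0 to 26.7), a ratio of 1.73 (1.44 to 2.07), with 1.15 for *SCRG1* and 1.64 for *CLEC3A*. The smallest *PRG4* count above 0 was 22 reads in the pre-transplant and 1 in the post-transplant sample. With a minimum of 10 *PRG4* reads, the ratios in post-transplant cyiPS-Cart were 1.26 for *ECRG4* (1.23 to 1.29), 1.04 for *SCRG1* and 1.12 for *CLEC3A*, and pooled they were 2.39, 1.74 and 1.66, with post-transplant cells making up 76.0% and 36.3% of the classes.

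**Figure D5:**
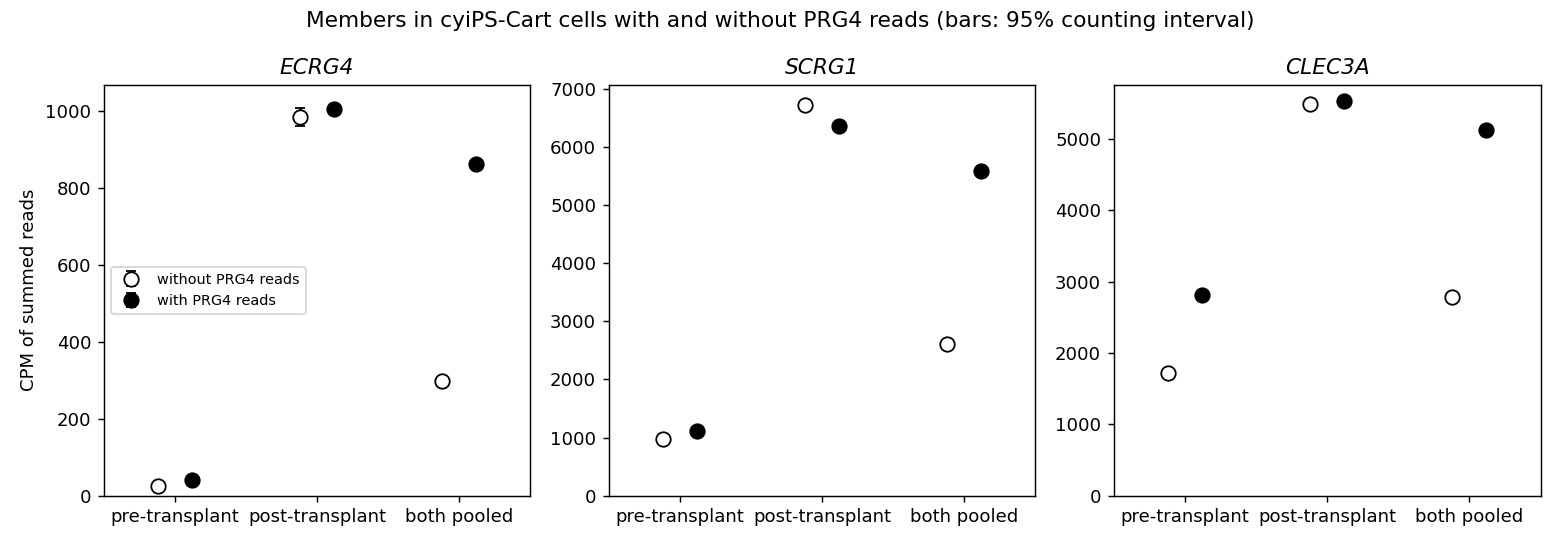
CPM of summed reads (vertical axis, from 0) of each gene in cells without (open circles) and with (filled circles) *PRG4* reads, in pre-transplant, post-transplant and pooled cyiPS-Cart, with 95% counting intervals. The circles lie apart when the samples are pooled (862 against 298 CPM for *ECRG4*) and close together within post-transplant cyiPS-Cart (1006 against 985).

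In joint tissue nearly every cell held some *PRG4*. Reads were found in 97.2% of cyAC cells and 87.2% of cyFT cells, with a median of 15 and 5 reads in those cells, so cells were ranked by *PRG4* CPM instead. From the lowest to the highest *PRG4*, *ECRG4* in cyAC was 5086 CPM (5020 to 5154), 4371 (4304 to 4439) and 3437 (3377 to 3497), and *SCRG1* was 3644, 2965 and 2419 CPM. *ECRG4* in cyFT was 2318 CPM (2264 to 2373), 2986 (2935 to 3037) and 3409 (3350 to 3468), the opposite order. *CLEC3A* had no order in cyAC (2563, 3066 and 2770 CPM) and in cyFT was 2205, 2226 and 1952 CPM. Cell by cell, rho with *PRG4* was -0.05 in cyAC and 0.07 in cyFT for *ECRG4*, and -0.23 in cyAC for *SCRG1*, number 3484 of 3503 genes from the top.

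The genes were found together in most cells of the transplant. All 3 had reads in 96 of 320 pre-transplant cells (30.0%), 92.8% of post-transplant cells (89.4 to 95.4), 75.9% of cyAC cells (70.9 to 80.5) and 49.7% of cyFT cells (44.1 to 55.3). What was missing differed: 54.7% of pre-transplant cells had *SCRG1* and *CLEC3A* without *ECRG4*. In cyAC and in cyFT 0 of 320 cells did (at most 1.15% by the exact interval), and 43.4% of cyFT cells had *ECRG4* without *CLEC3A*. These shares rest on unlike limits, since single reads of *ECRG4* were kept and low counts of *CLEC3A* were not. Every cyAC and cyFT cell with *CLEC3A* also held *ECRG4*, so the shares with all 3 there equal those with *CLEC3A*. They do not show which cells lacked a transcript. Over the cells of a sample *SCRG1* and *CLEC3A* had rho of 0.49 before and 0.24 after transplantation, 0.24 in cyAC and 0.57 in cyFT. For *ECRG4* and *CLEC3A* rho was 0.09, 0.01, -0.18 and 0.55 in the same order, and for *ECRG4* and *SCRG1* 0.02, 0.19, 0.24 and 0.54. Most of the cyFT values went with detection: over cells with reads of both genes they were 0.18 for *SCRG1* with *CLEC3A* and -0.01 for *ECRG4* with *CLEC3A* (159 cells each), but 0.50 for *ECRG4* with *SCRG1* (294 cells).

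*CHAD* was among the 5 genes most like each of the set in their pattern over cells. Likeness was the mean over 4 samples of the Spearman correlation within a sample, among 2904 genes that 25% or more of the cells held in every one of these samples. For *ECRG4* the 5 highest were *CHAD*, a matrix protein that binds chondrocytes (0.33), *COL9A2*, a type IX collagen chain (0.32), the Wnt antagonist *FRZB* (0.31), the protease inhibitor *SERPINA3* (0.29) and *SNORC*, a chondrocyte proteoglycan (0.29), with a median of 0.02 over all genes. These means rest on cyFT, where *CHAD* had 0.66 and *COL9A2* 0.71, more than on pre-transplant cyiPS-Cart, where they had 0.10 and 0.05. For *SCRG1* they were *SPARC* (0.42), *CHAD* (0.41), *COL9A2* (0.40), *FRZB* (0.40) and *CLEC3A* (0.39). For *CLEC3A* they were *CHAD* (0.48), *COL2A1* (0.44), *SPARC* (0.43), *COL9A1* (0.43) and *SCRG1* (0.39). The level of *CHAD* was 356 CPM before and 1436 CPM after transplantation, 15717 CPM in cyAC and 7669 CPM in cyFT.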

How the data were processed

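Cynomolgus monkey cells were sequenced by TAS-Seq. The deposited files hold raw counts of reads for each gene in each cell: the authors trimmed reads with cutadapt 3.4, assigned them to cynomolgus Ensembl transcripts (the labels name a human build, GRCh38) with Bowtie2 2.4.2 (versions from the submitters' processing notes, which also name R 3.6.3), called cells from a knee plot, split hashtag-pooled samples, zeroed background counts of highly expressed genes, removed cells with a high mitochondrial share and, for the second matrix, reduced each sample to 320 cells. The sources used here do not say that molecules were counted. Cells were taken to samples by the hashtag in their names, read through the labels and the authors' code. The tag libraries were not used here.

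Reads were summed per sample or cell class and given as CPM, with exact Poisson intervals. Ratios have exact conditional intervals, shares Clopper-Pearson intervals (95%), and thinned shares are the expected shares at 12191 or 30967 reads per cell, with shallower cells left out. Log2 ratios use a pseudocount of 1 CPM. With 1 sample per condition no p value was computed. Python 3.11.15, numpy 2.4.6, scipy 1.17.1 and pandas 2.3.3 were used, with edgeR 4.0.16 for TMM factors on the summed deposited counts. On simulated counts of post- over pre-transplant cyiPS-Cart over 14020 genes, the direction of 100% of 200 changed genes was recovered, with a median error of 0.0262 and a largest error of 0.181 (log2). The reads were drawn from 1 summed profile, with no spread between cells, samples or libraries. That simulation checks the arithmetic only and not how far the measured ratios can be trusted.

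The genes named are the set itself, its partners *COL2A1*, *PRG4*, *COL1A1* and *ACAN*, *CLEC3B*, GFP-polyA, the 5 genes most like each of the set over cells, and the 3 secreted cartilage genes that had the largest log2 ratios upward and downward across the transplantation. Other genes, named as markers or in the closing observations, fall outside that rule. The set and the lists were chosen with earlier results of these data known. No doublet caller was run, and leaving out the deepest 5% of cells was an alternative instead, beside other scalings, cell filters, pseudocounts and class limits. Of the symbols, 94.9% were in a RefSeq table of another assembly, used for names only.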

Additional observations from a re-analysis of the deposited data

Results flagged for a closer look

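*ECRG4* moved in opposite directions along *COL2A1* in different samples. The log2 ratio of *ECRG4* CPM between the 106 cells with the most and the 107 with the least *COL2A1* was -1.25 in cyAC but 0.59 in the organoid before transplantation and 0.40 after it. The pre-transplant value was 1.84 above that of cyAC and the post-transplant value 1.66 above it. Among the 3527 pre-transplant cells of the other matrix the log2 ratio was 0.24. Along *PRG4* the same log2 ratio was -0.57 in cyAC and 0.56 in cyFT, so that cyAC minus cyFT was -1.12. These differences were picked out because the signs are opposite, and with 1 sample per condition they were not tested.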

How the results depend on the processing

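No paired analysis was possible because each condition is 1 sample and no result comes from a test. Leaving out *COL2A1* reads, ranking cells by *PRG4* or *COL2A1* and the pooled minimum of 10 *PRG4* reads were chosen after seeing the data. Under 150 alternative values of the log2 ratios between samples, 0 changed sign. Over all results there were 601 alternatives, of which 361 stayed within their limits, 239 moved and 1 reversed. A sign change counted as reversed only for ratios of at least 2-fold and for rho past a set size. Sign changes of smaller results are therefore among the other labels. Some log2 ratios between cell classes changed sign. For *ECRG4*, cells with over without *COL2A1* before transplantation went from 0.26 to as low as -0.42. Cells with over without *PRG4* in cyAC went from 0.37 to as low as -0.52. For *SCRG1* the same log2 ratio went from 0.29 to as low as -0.25 in cyAC and from 0.33 to as low as -0.16 in cyFT. Post over pre, the log2 ratio of *ECRG4* (5.13) was 5.35 with TMM factors, 5.33 without the 1% of cells with the most CPM of the gene and 4.75 with a pseudocount of 10 CPM. That of *SCRG1* (2.69) was 2.92 with TMM factors, 2.64 without mitochondrial genes, 2.73 as a mean of per-cell CPM, 2.72 with a stricter filter on cells, 2.78 without the deepest 5% of cells, 2.76 with the 3527 pre-transplant cells and 2.72 without *COL2A1* reads. That of *CLEC3A* (1.52) was 1.75, 1.47, 1.59 and 1.55 with TMM factors, without mitochondrial genes, without the deepest cells and without *COL2A1* reads. Over cyAC, *CLEC3A* (log2 ratio 0.99) joined *SCRG1* past 2-fold in post-transplant cyiPS-Cart (2 genes) with TMM factors, per-cell means, without the deepest 5% and without the top 1% of cells. In cyFT rho of *CLEC3A* and *COL2A1* went from 0.62 to -0.12 over cells with reads of both genes.

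The background moved with the scaling. TMM factors gave 14.3% of genes at least 2-fold lower post over pre, 13.9% higher and 13.6% lower post over cyFT, 5.64% higher cyAC over cyFT, and 30.8% higher and 16.8% lower pre-transplant over cyiPSC. Without the filter on low genes cyAC over cyFT had 5.70% higher and 13.7% lower. The share of calls that were higher went from 27.0% to 44.5% with TMM factors post over pre, from 26.8% to 50.6% over cyFT, from 34.6% to 52.9% for cyAC over cyFT and from 32.3% to 64.7% for pre-transplant over cyiPSC, and the median log2 ratio from -0.39 to -0.12, -0.29 to 0.09, -0.11 to 0.10 and -0.63 to 0.25. The median also went from -0.13 to 0.02 post over cyAC and from -0.28 to -0.14 cyAC over pre-transplant cyiPS-Cart. Depth was 27499.5 to 80335.5 median reads per cell in the matrix of 4 samples, and single reads of *ECRG4* were not removed in any library, which limits what its share of cells can show.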

Other observations

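Within cyAC 28 other secreted cartilage genes were set against *ECRG4* over the 320 cells. The highest rho were those of *VIT* (0.46), *SFRP5* (0.41), *MGP*, an inhibitor of mineralization (0.38), and *FRZB* (0.37), and the lowest those of *FMOD*, a collagen-binding proteoglycan (-0.35), *CILP* (-0.32) and *ABI3BP* (-0.29). With *CLEC3A* some of them had the opposite sign: *CILP* had 0.48, *VIT* -0.24 and *MGP* -0.24. In post-transplant cyiPS-Cart *MGP* (0.31) and *FMOD* (0.25) both had positive rho with *ECRG4*. The genes of this and the next paragraph were named after their values were seen, and the correlations are descriptions over cells of 1 sample each.

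Among 6 listed genes of candidate surface partners, *BST1* alone passed the minimum in each comparison, at 57.3 CPM before and 78.5 after transplantation, 108 in cyAC and 54.7 in cyFT. The chemokine receptor *CCR2* and the scavenger receptors *OLR1*, *SCARF1*, *CD36* and *STAB1* were below 25 CPM in post-transplant cyiPS-Cart and cyAC. *STAB1* had 106 CPM in cyFT, in 5.62% of the cells, against 0.603 CPM in post-transplant cyiPS-Cart and 0.930 in cyAC.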
